A study of Homo sapiens with 6 samples.

Results

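Small nucleolar RNA (snoRNA) genes of the box C/D class (names starting with SNORD) and the H/ACA class (names starting with SNORA) were measured in cultured cells that had received miR-27a-3p mimics or a negative control. The genes were chosen by name and by level: a gene was a member if its mean over the 6 samples was at least 1 FPKM (fragments scaled to gene length and library size). This rule kept 113 of the 796 SNORD and SNORA genes listed, 56 of 375 SNORD and 57 of 421 SNORA, among 58174 genes in all. The levels that chose the members are given as a description only.

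The study concerns cisplatin sensitivity in hepatocellular carcinoma. Both groups are labelled Huh-7, an established human hepatocellular carcinoma line. The mimic group (n = 3) received miR-27a-3p mimics and the NC group (n = 3) received a negative control labelled NC, both by lipofection, and cells were collected 48 h later. No drug is named for either group, and every group shares the transfection. An mRNA kit turned 1 µg of total RNA from each sample into a library. No label ties the 3 samples of a group to separate cultures; the p-values then reflect only how far these samples differ, which could be technical variation.

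The labelled line was checked against 10 genes of hepatocytes and hepatocellular carcinoma lines, and 0 of the 10 had a mean of at least 1 FPKM. The albumin gene ALB had a highest value of 0.011 FPKM, the alpha-fetoprotein gene AFP 0.024, and APOB, APOH and TTR were listed at 0 in every sample. The summed level of the 10 genes was 1.08 to 2.11 FPKM in NC samples and 0.912 to 1.27 in mimic samples. These markers go against the label, so the samples are called the labelled Huh-7 libraries here. Of the other marker lists, 1 of 4 epithelial genes (CDH3), 1 of 5 fibroblast genes (COL1A1) and 1 of 4 leukocyte genes (CD68) reached 1 FPKM, and PTPRC, COL1A2 and KRT5 stayed under 0.03 FPKM. The summed levels of all 5 other lists separated the groups: 17.1 to 17.9 FPKM in NC and 6.74 to 9.57 in mimic samples for the fibroblast list, 2.72 to 4.43 and 5.57 to 6.15 for the epithelial list, 8.63 to 10.6 and 11.3 to 19.4 for the leukocyte list, 1.42 to 2.91 and 0.512 to 0.823 for the endothelial list, and 0.477 to 0.701 and 1.06 to 1.25 for the erythroid list. The lists did not move as units: CDH3 carried the epithelial sum while TP63 (0.410 to 0.482 FPKM in NC, 0.057 to 0.0803 in mimic samples) and KRT14 were lower in each mimic sample, and CD68 carried the leukocyte sum while CD14 (0.787 to 1.54 and 0.348 to 0.463) was lower. The part of cell identity in the results below was not tested.

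Box C/D snoRNAs carry a box C near the 5′ end and a box D near the 3′ end, bind FBL, NOP56, NOP58 and SNU13, and mostly guide 2′-O-methylation of ribosomal RNA. H/ACA snoRNAs fold into hairpins joined by an H box and end in an ACA box, bind DKC1, GAR1, NHP2 and NOP10, and mostly guide pseudouridylation. In human cells most of them are cut out of introns of longer host genes, many of which encode ribosomal proteins or are long non-coding RNAs, while U3 (SNORD3A) has its own promoter. Mature snoRNAs have no poly(A) tail, and a library kit for mRNA is not designed to capture them.

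The sequences of 8 members named in the results below are shown. These members include the most abundant SNORD gene, the most abundant SNORA gene and the only member that was called higher. The others are both members within the HSPA9 gene, 1 member of the RPS12 gene and both members within the EIF4A2 gene. The sequences come from GENCODE release 29 (hg38) and are written as DNA from 5′ to 3′ on the gene's own strand. The box letters that were found are in capitals. In SNORD genes TGATGA was searched in the first 20 bases (box C) and CTGA in the last 15 (box D), and in SNORA genes ACA in the last 8, on the gene's strand only. A gene shown without a capital TGATGA has no exact match in that window.
SNORD58B: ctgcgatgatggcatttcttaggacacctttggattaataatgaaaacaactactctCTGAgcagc
SNORD63B: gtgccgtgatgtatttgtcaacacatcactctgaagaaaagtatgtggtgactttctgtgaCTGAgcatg
SNORD63: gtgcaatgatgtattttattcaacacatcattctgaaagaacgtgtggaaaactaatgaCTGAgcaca
SNORD101: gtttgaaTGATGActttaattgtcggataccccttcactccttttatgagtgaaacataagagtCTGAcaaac
SNORA63: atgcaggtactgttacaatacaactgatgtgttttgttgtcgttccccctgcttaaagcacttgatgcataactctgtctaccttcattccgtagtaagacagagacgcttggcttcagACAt
SNORA4: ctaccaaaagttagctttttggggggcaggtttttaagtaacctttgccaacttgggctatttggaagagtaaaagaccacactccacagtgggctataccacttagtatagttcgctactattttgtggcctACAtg
SNORA67: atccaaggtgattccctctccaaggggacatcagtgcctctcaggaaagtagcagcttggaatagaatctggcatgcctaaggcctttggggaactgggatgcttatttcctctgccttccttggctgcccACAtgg
SNORA77B: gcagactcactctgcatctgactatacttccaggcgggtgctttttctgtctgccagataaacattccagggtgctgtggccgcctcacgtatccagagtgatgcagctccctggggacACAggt

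SNORD58B lies at chr18:49491664-49491729 on the minus strand, within the ribosomal protein gene RPL17. SNORD63B at chr5:138558970-138559039 and SNORD63 at chr5:138561043-138561110 lie on the minus strand within HSPA9. SNORD101 at chr6:132815307-132815379 is on the plus strand in an intron of RPS12. SNORA63 at chr3:186786323-186786445 and SNORA4 at chr3:186787612-186787749 are on the plus strand within EIF4A2, and SNORA67 at chr17:7577955-7578091 is on the plus strand within EIF4A1. SNORA77B at chr22:20126402-20126526 is on the plus strand within RANBP1. SNORD63B, SNORD63, SNORA63 and SNORA4 overlap an exon of a retained-intron transcript of their host. SNORD58B, SNORA67 and SNORA77B overlap an exon of another host transcript. Whether fragments of the host count in their values was not tested.

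The exact TGATGA was present in 32 of 56 SNORD members (57.1%) and in 62.1% of the 319 other SNORD genes listed, and CTGA in 89.3% and 83.1%. As a comparison of the same windows, TGATGA was found in 0.248% and CTGA in 4.47% of 403 SNORA genes. The ACA letters were found in 91.2% of SNORA members, in 71.2% of the 364 other SNORA genes listed and in 6.56% of 366 SNORD genes. Members were thus close to other SNORD genes in their box letters, and SNORA members held the ACA letters more often than the other SNORA genes; these shares were not tested.

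Members and the other genes of their class also lay in different places, given here as a description. A longer gene on the same strand held 53 of 56 SNORD members and 49 of 57 SNORA members, against 79.0% of the other SNORD and 44.8% of the other SNORA genes. The median distance from the end of the snoRNA to the 3′ splice site was 84 bases for SNORD members and 538 bases for other SNORD genes. For SNORA genes it was 129.5 bases in members and 1666 in the others. Members also lay in shorter introns, with median lengths of 454 bases (SNORD) and 779 bases (SNORA), against 1305.5 and 4107 in the other genes. A name carried by several listed genes was found for 25 SNORA members and 11 SNORD members, and fragments shared between such copies could have been assigned to either.

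Members were lower in the mimic group in most cases. Across all 14439 genes tested, limma on log2(FPKM + 0.5) with Benjamini-Hochberg adjustment called 39.6% lower and 12.0% higher at an adjusted p under 0.05. In the SNORD class, 39 of 56 genes were lower and 0 were higher, and in the SNORA class 44 of 57 were lower and 1 was higher. The median log2 fold change of mimic over NC was -1.39 for SNORD and -1.25 for SNORA genes, beside -0.29 for all genes tested. Of the lower genes, 34 SNORD and 34 SNORA genes had a log2 fold change of -1 or below, beside 2666 of the 14439 genes tested. The size of the fall was not itself tested.

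The lowest NC sample lay above the highest mimic sample in 39 SNORD genes and 42 SNORA genes, 71.7% of the 113 members, and in 44.3% of all genes tested. The counts and medians of the SNORD and SNORA classes were close to each other, and the difference between the classes was not tested. Median-of-ratios scaling moved the median of all genes from -0.29 to 0.01 and their calls from 5718 lower and 1735 higher to 3953 lower and 3889 higher. With that scaling 35 SNORD genes were lower and 0 higher (median -1.13), and 39 SNORA genes were lower and 1 higher (median -1.03). The class medians thus lay below the median of all genes under both scalings.

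A correction for GC content and length took the share of lower members close to that of all genes. With it 15 SNORD genes were lower (26.8%) and 6 higher (10.7%), and 14 SNORA genes were lower (24.6%) and 4 higher (7.02%), with medians of -0.10 and -0.18. Of all 14402 genes tested with that correction, 23.4% were lower and 26.6% higher, with a median of 0.05. The excess of lower calls among the members thus nearly vanished. Their share of higher calls stayed under that of all genes, and both class medians stayed below the median of all genes. The correction is fitted on the tested genes, and 111 of the 367 tested genes under 250 bases are members, so it takes part of its trend from them.

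**Figure D1:**
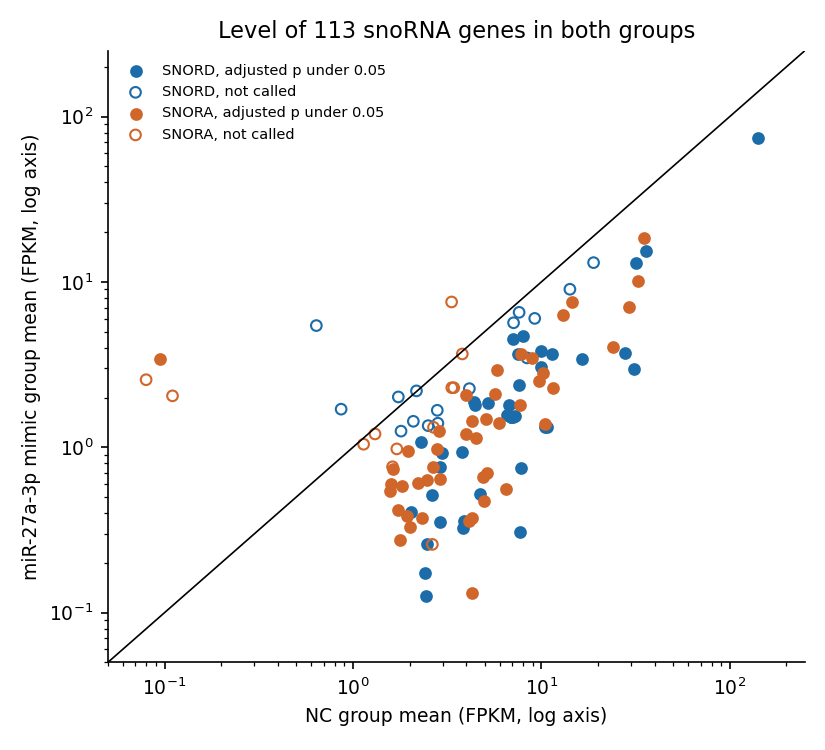
Mean FPKM of each of the 113 members in the NC group (x axis) and the mimic group (y axis), both on log axes; filled points passed an adjusted p under 0.05, and the line marks equal levels. Most points of both classes lie under the line, and 1 SNORA point that passed the threshold lies above it.

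The rule used the mean of both groups, so a gene could enter through 1 group alone. Both group means reached 1 FPKM in 68 members. Of these 47 were lower and 0 higher, and their median log2 fold change was -1.12. Of all genes tested with both means at 1 FPKM or more, 34.8% were lower. A further 40 members reached 1 FPKM in the NC group only, and 5 in the mimic group only, so their difference follows in part from the rule. Of the 40, 36 were lower (90.0%), beside 89.5% of the 1346 genes tested that reached it in the NC group only. Of the 5, 1 was higher, beside 57.7% of the 130 genes tested that reached it in the mimic group only. Just inside the limit were SNORD11 and SNORD14E with means of 1.21 and 1.28 FPKM, and SNORA79B and SNORA9B with 1.03 and 1.06. Just outside were SNORD83B and SNORD36A with 0.861 and 0.853 FPKM, and SNORA47 and SNORA81 with 0.987 and 0.909.

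As a class total, SNORD members summed to 613, 521 and 568 FPKM in the NC samples and to 258, 231 and 196 in the mimic samples. SNORA members summed to 376, 318 and 349 FPKM in NC samples and to 141, 119 and 124 in mimic samples. Neither total overlapped between the groups. The members summed were chosen by these same values. Of them, 40 reached 1 FPKM in the NC group only and 5 in the mimic group only, so this gap follows in part from the rule. SNORD58B alone gave 133, 146 and 145 FPKM of the SNORD totals in NC and 88.1, 73.3 and 61.2 in mimic samples. SNORD genes made up 0.112% to 0.136% of the summed FPKM of an NC library and 0.0367% to 0.0570% of a mimic library. In bulk RNA, fewer cells that carry an RNA and less of it in each cell cannot be told apart.

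SNORD58B was the most abundant member, at 133, 146 and 145 FPKM in NC samples and 88.1, 73.3 and 61.2 in mimic samples. Its log2 fold change was -0.94 (SE 0.16, adjusted p = 0.0018, limma). The groups did not overlap, and the host RPL17 was at 208, 238 and 202 FPKM in NC and 273, 232 and 185 in mimic samples, with overlapping groups and a log2 fold change of 0.07 (SE 0.18). The other member within RPL17, SNORD58A, had 11.5, 10.0 and 12.7 FPKM in NC and 3.49, 3.86 and 3.72 in mimic samples, a log2 fold change of -1.51 (adjusted p = 0.0001, limma). RPL17 encodes a protein of the large ribosomal subunit.

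The largest falls among SNORD genes were in HSPA9, which encodes a mitochondrial HSP70 chaperone. SNORD63B was at 33.6, 22.1 and 37.5 FPKM in NC samples and at 2.79, 2.64 and 3.45 in mimic samples, a log2 fold change of -3.16 (SE 0.21, adjusted p = 3.4e-05, limma). SNORD63 was at 8.14, 6.38 and 8.64 FPKM in NC and 0.253, 0.542 and 0.125 in mimic samples, a log2 fold change of -3.37 (SE 0.22, adjusted p = 3.3e-05). All mimic values of both genes lay far under all NC values. SNORD63 reached a mean of 1 FPKM in the NC group only, so its fall and the gap between its groups follow in part from the rule. HSPA9 itself was at 181, 189 and 172 FPKM in NC and 179, 179 and 165 in mimic samples, and its log2 fold change of -0.05 (SE 0.13) was not called.

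The EIF4A1 gene, which encodes the RNA helicase of translation initiation eIF4A1, held 1 member of each class. SNORD10 was at 27.2, 26.4 and 29.5 FPKM in NC and 3.70, 4.68 and 2.85 in mimic samples, a log2 fold change of -2.75 (SE 0.17, adjusted p = 2.9e-05, limma). SNORA67, the most abundant SNORA gene, was at 36.9, 35.2 and 32.6 FPKM in NC and 19.1, 17.2 and 18.9 in mimic samples, a log2 fold change of -0.91 (SE 0.12, adjusted p = 0.00056). Both fell without overlap between groups, by unequal amounts, and whether the 2 changes differ was not tested. EIF4A1 itself was not called, with a log2 fold change of 0.22 (SE 0.22).

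In EIF4A2, the paralogue of EIF4A1, the host was lower as well. SNORA4 was at 31.2, 27.3 and 29.3 FPKM in NC and 8.49, 7.27 and 5.37 in mimic samples, a log2 fold change of -2.00 (SE 0.17, adjusted p = 8.7e-05, limma). SNORA63 was at 27.2, 21.5 and 22.9 FPKM in NC and 4.82, 4.62 and 2.60 in mimic samples, a log2 fold change of -2.47 (SE 0.22, adjusted p = 9.5e-05). EIF4A2 went from 144, 138 and 131 FPKM to 71.4, 68.1 and 58.6, a log2 fold change of -1.06 (SE 0.14, adjusted p = 0.00042). Neither the snoRNA genes nor the host overlapped between groups.

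The nucleolin gene NCL also held 1 member of each class, and nucleolin is an abundant nucleolar protein. Its SNORA75 gene was at 5.98, 6.37 and 7.05 FPKM in NC and 0.731, 0.579 and 0.378 in mimic samples, a log2 fold change of -2.72 (SE 0.17, adjusted p = 2.9e-05, limma). SNORD20 was at 10.4, 7.56 and 5.36 FPKM in NC and 0.502, 1.12 and 0.616 in mimic samples, a log2 fold change of -2.71 (SE 0.27). Both genes separated the groups. Both also reached a mean of 1 FPKM in the NC group only, so their fall and this gap follow in part from the rule. NCL was at 88.4 to 90.4 FPKM in NC and 100 to 112 in mimic samples and was not called (log2 fold change 0.23, SE 0.12).

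The small-subunit ribosomal protein gene RPS12 held SNORD101, SNORD100 and SNORA33, whose log2 fold changes were -1.87, -1.99 and -1.85. SNORD101 was at 8.11, 6.51 and 6.11 FPKM in NC and 1.40, 1.72 and 1.44 in mimic samples (SE 0.16, adjusted p = 7.7e-05, limma). RPS12 varied from 226 to 344 FPKM in NC and from 231 to 535 in mimic samples, so its groups overlapped, with a log2 fold change of 0.07 (SE 0.34).

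The SNHG1 gene, a long non-coding RNA known as a snoRNA host, held 5 members. SNORD26 was at 37.0, 35.6 and 34.7 FPKM in NC and 13.8, 15.5 and 16.7 in mimic samples, a log2 fold change of -1.20 (SE 0.13, adjusted p = 0.00019, limma). The SNORD22 gene at chr11:62854161 was at 35.0, 30.3 and 30.4 FPKM in NC and 16.7, 11.9 and 10.3 in mimic samples, a log2 fold change of -1.29 (SE 0.19). SNORD30 fell too, by 1.37 on the log2 scale, while SNORD27 and the SNORD22 gene at chr11:62852910 were not called. SNHG1 itself had a log2 fold change of -0.81 (SE 0.18, adjusted p = 0.0066, limma). The TAF1D gene, which encodes a subunit of the RNA polymerase I factor SL1, fell by 1.08, and its members SNORA8, SNORA25 and SNORD6 by 1.66, 1.25 and 1.80. SNORA8, the most abundant of these, was at 34.4, 30.0 and 33.7 FPKM in NC and 8.72, 9.12 and 12.5 in mimic samples.

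Other abundant members fell less. SNORA64 at chr16:1962973, within the ribosomal protein gene RPS2, was at 16.3, 14.1 and 13.0 FPKM in NC and 9.28, 5.81 and 7.73 in mimic samples, a log2 fold change of -0.90 (SE 0.18, adjusted p = 0.0040, limma). SNORA73B, a copy of U17 that acts in pre-rRNA cleavage, lies in SNHG3 and was at 15, 14.6 and 9.44 FPKM in NC and 9.52, 5.75 and 3.70 in mimic samples. Its groups overlapped, and its log2 fold change was -1.05 (SE 0.32, adjusted p = 0.027, limma). The call was lost without NC sample 1 or 2 or mimic sample 2 or 3, and with no filter on low values. It was also lost with median-of-ratios scaling, quantile normalization, and the GC and length correction with or without a replicate block. SNORD87, within SNHG6, was at 21.0, 15.9 and 19.9 FPKM in NC and 14.4, 15.3 and 9.61 in mimic samples and was not called (log2 fold change -0.53, adjusted p = 0.051).

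**Figure D2:**
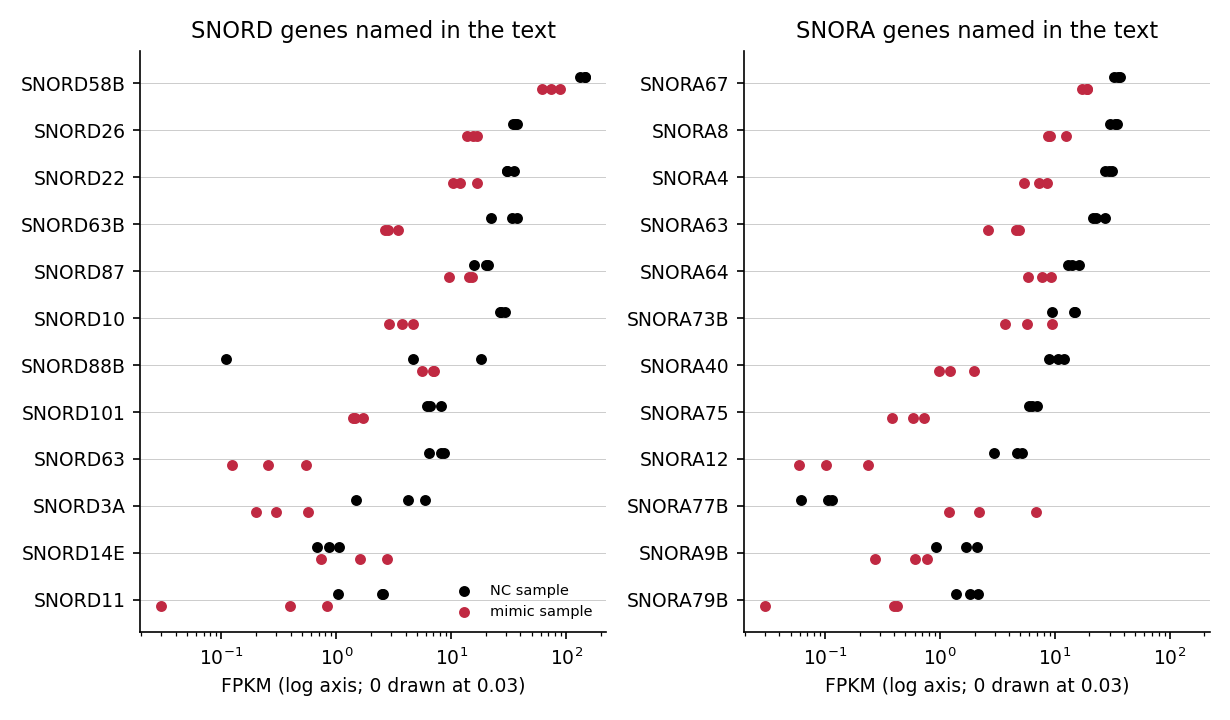
FPKM of every sample (log x axis, values of 0 drawn at 0.03) for the 24 members named by level, by p-value, by direction, by nearness to the limit or for U3; black points are NC samples and red points mimic samples. SNORD63B, SNORD63, SNORD10 and SNORA75 show the wide gaps described in the text, and SNORD88B shows its spread within the NC group.

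SNORD3A, a gene for the U3 snoRNA that acts in the first cleavages of pre-rRNA, is annotated with 699 bases and lies in no longer gene. It was at 5.89, 1.47 and 4.23 FPKM in NC and 0.567, 0.301 and 0.201 in mimic samples, a log2 fold change of -2.21 (SE 0.41, adjusted p = 0.0034, limma). The NC values spread widely, yet all lay above the mimic values. In all, 11 members lay in no longer gene on their strand, and 11 of these were lower, with a median of -1.76, beside 39.6% of all genes. Of the 11, 7 reached 1 FPKM through the NC group only, SNORD3A and SNORA12 among them, so their fall follows in part from the rule. Of all genes tested that did so, 89.5% were lower. The other 4 members were lower too, beside 34.8% of all genes with both means at 1 FPKM or more. These 4 include SNORA40 at chr1:150600539. It was at 8.95, 11.9 and 10.7 FPKM in NC and 0.973, 1.98 and 1.21 in mimic samples (log2 fold change -2.57, SE 0.21, adjusted p = 7.5e-05, limma). The gene named SNORA12 at chr2:55565703 was at 5.17, 2.95 and 4.68 FPKM in NC and 0.102, 0.0592 and 0.235 in mimic samples, the lowest SNORA log2 fold change at -2.89 (SE 0.23). The name SNORA40 is carried by 20 listed genes and SNORA12 by 3, and 8 of the 11 members have a gene on the other strand. No source used here gives the strand setting of the counting, so fragments from the other strand cannot be told apart.

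The only member called higher was SNORA77B in RANBP1, which encodes a cofactor of the nuclear transport GTPase Ran. It is 1 of the 5 members that reached 1 FPKM through the mimic group only, so its call and the gap between its groups follow in part from the rule. It was at 0.115, 0.106 and 0.0619 FPKM in NC samples and at 6.89, 1.19 and 2.18 in mimic samples, a log2 fold change of 2.44 (SE 0.48, adjusted p = 0.0042, limma). All mimic samples lay above all NC samples, with a wide spread among them. The NC values correspond to 0.13 to 0.28 of 1 whole fragment and the mimic values to 26.8, 3.74 and 7.70. SNORA77B overlaps an exon of a transcript of its host, and RANBP1 was called higher with a log2 fold change of 0.61 (SE 0.14, adjusted p = 0.0067). In the SNORD class the highest log2 fold change was that of SNORD88B in C19orf48P, 0.85 (SE 1.17, adjusted p = 0.58), with NC values of 4.68, 0.110 and 18.1 FPKM and mimic values of 6.90, 5.60 and 7.14.

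Values of 15 members jumped between samples of the same group, which was noticed after the values were seen. A jump was taken as a highest value of at least 1 FPKM and at least 20 times the lowest in the same group. SNORD27 was at 24.9, 0.120 and 0.161 FPKM in NC and 0.0971, 0.103 and 10.2 in mimic samples. SNORD68 was at 0.0384, 8.41 and 0.0256 in NC and 4.18, 0.00849 and 0.00690 in mimic samples, and the SNORD22 gene at chr11:62852910 had 16.1 FPKM in mimic sample 2 and under 1.3 in the other samples. All 15 overlap an annotated exon of a longer gene on their strand, while 0 of the 55 members that lie in an intron of every annotated transcript jumped. Of the 15, 2 were called, SNORD89 and SNORA21, both lower.

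The counts were therefore also split by annotation, and they stand beside 39.6% lower and 12.0% higher among all genes tested. Of all 113 members, 40 reached 1 FPKM in the NC group only, so these counts follow in part from the rule. Of the 55 members in an intron of every annotated transcript, 43 were lower and 0 higher, and the median was -1.28. Of the 23 that overlap an exon of a retained-intron transcript only, 17 were lower, with a median of -1.43. Among these 23 are SNORD63B, SNORD63, SNORD10, SNORD26, SNORD22 at chr11:62854161, SNORA8, SNORA4, SNORA63 and SNORA64 at chr16:1962973. Of the 24 that overlap an exon of another transcript, 12 were lower (50.0%) and 1 higher, with a median of -0.92, so their lower share was nearer to that of all genes. SNORD58B and SNORA67 are among these 24. Whether fragments of the host count in the values of members with exon overlap was not tested. Without any exon overlap, an alternative chosen after the values were seen, 25 of 31 SNORD and 29 of 35 SNORA genes were lower.

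Members were set beside the genes that hold them. The 102 members with a host lie in 71 hosts, and of the 71 hosts 20 were lower (28.2%), 5 were higher and 46 were not called, with a median log2 fold change of -0.12. With median-of-ratios scaling 15 hosts were lower and 18 higher, with a median of 0.20, so the direction of the hosts as a group depends on the scaling. The hosts' shares lay under those of all genes: 28.2% lower against 39.6%, and with median-of-ratios scaling 21.1% lower and 25.4% higher against 27.4% and 26.9%. The member's log2 fold change was below that of its host in 82 of 102 pairs, and the median of member minus host was -1.05 for SNORD and -0.86 for SNORA genes. With median-of-ratios scaling it was below the host's in 84 of 102 pairs, with quantile normalization in 74, and with the correction for GC content and length in 58. The median of member minus host over all 102 pairs went from -0.94 to -0.42 with quantile normalization and to -0.09 with the GC and length correction, so the size of the gap depends on that choice. Of 72 lower members with a host, 47 had a host that was not called, 21 a lower host and 4 a higher one. The 4 are SNORA41 and SNORD51 in EEF1B2 and SNORD32A and SNORD34 in RPL13A. Member and host are measured in the same libraries, and members of 1 host share it, so these counts are a description.

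**Figure D3:**
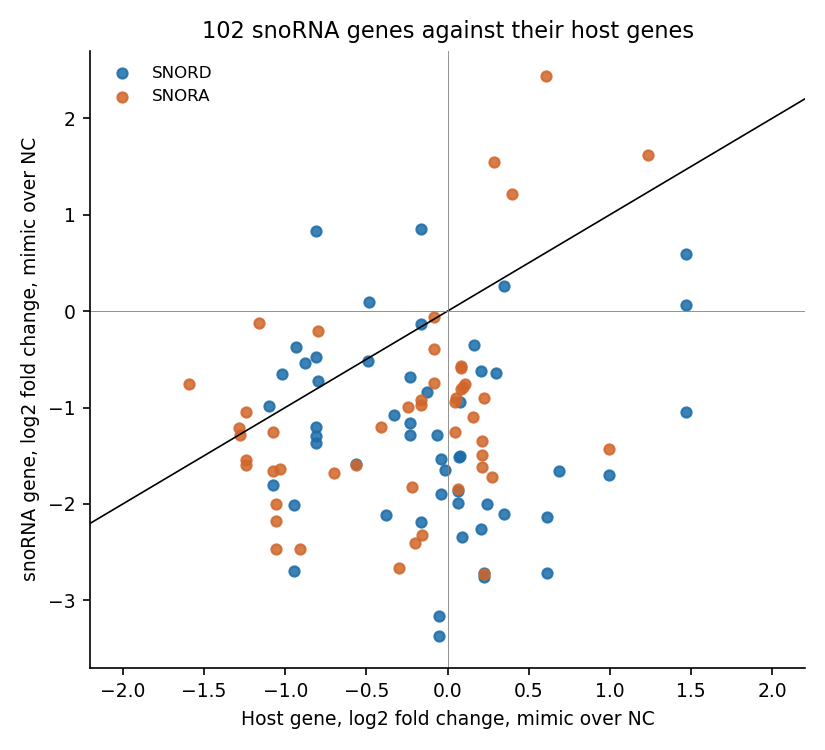
Log2 fold change of 102 members (y axis) against that of the host gene (x axis), mimic over NC, with the line of equal change. Points lie below the line for 82 of the 102 members, and for 58 of the 102 with the GC and length correction, which is not drawn.

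Hosts that encode ribosomal proteins are a large group among the hosts. The 26 members in 19 such hosts had a median log2 fold change of -1.62, and 21 of them were lower and 0 higher, while 0 of the 19 hosts were lower, 2 were higher and their median was 0.07. All counts by host kind stand beside 39.6% lower and 12.0% higher among all genes tested. With median-of-ratios scaling 0 of these 19 hosts were lower and 7 higher, beside 27.4% and 26.9% of all genes. With quantile normalization 3 were lower and 2 higher, with a median of -0.01, beside 22.8% and 24.9%. With the GC and length correction 0 were lower and 8 higher, with a median of 0.315, beside 23.4% and 26.6%. RPL13A, a protein of the large subunit, was at 913, 985 and 767 FPKM in NC and 1536, 1300 and 1241 in mimic samples, a log2 fold change of 0.61 (SE 0.19, adjusted p = 0.023, limma). Its member SNORD32A was at 16.6, 15.3 and 17.6 FPKM in NC and 2.91, 2.72 and 4.68 in mimic samples, a log2 fold change of -2.14 (SE 0.19). In 36 other protein-coding hosts the host median was 0.04 and that of their 51 members -1.25, with 35 lower and 1 higher. In 16 non-coding or pseudogene hosts the hosts were lower as well, 11 of 16 with a median of -0.93, and their 25 members had a median of -1.05 with 16 lower. With the GC and length correction the median of member minus host over all 102 pairs was -0.09. These host kinds were set after the values were seen, and the differences between them were not tested.

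Several members shared a host in 22 cases, which together held 53 members. In 14 of the 22 hosts all members were lower, in 4 some were and in 4 none was. Among the hosts with none was HSPA8, which encodes a constitutive HSP70 chaperone and hosts some of the genes for U14, a snoRNA that acts in 18S rRNA maturation. HSPA8 had a log2 fold change of 1.47 (SE 0.17, adjusted p = 0.00031, limma), from 157, 228 and 205 FPKM to 517, 572 and 526. Its members SNORD14C, SNORD14D and SNORD14E had log2 fold changes of -1.05, 0.07 and 0.59, none of them called. Another U14 member, SNORD14A in RPS13, had a log2 fold change of -1.58. SNORD14E was at 0.681, 0.868 and 1.05 FPKM in NC and 2.75, 1.62 and 0.731 in mimic samples, so its groups overlapped. With the GC and length correction it was called higher, with a log2 fold change of 1.80 (adjusted p = 0.0044, limma). In GNL3, which encodes nucleostemin, the 3 members fell by 0.68 to 1.29 on the log2 scale and the host was not called. In SNHG17, 1 of 3 members was lower (SNORA71B, log2 fold change -0.75), and in C19orf48P 1 of 3 (SNORD88A, -2.18); neither host was called.

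None of the 8 genes for core proteins of the particles was called lower, here or with median-of-ratios scaling, quantile normalization or the GC and length correction. Of the box C/D core genes FBL, NOP56, NOP58 and SNU13, 0 of 4 were called, with log2 fold changes of 0.07 to 0.19. FBL, the methyltransferase, was at 94.6, 129 and 108 FPKM in NC and 123, 126 and 99.1 in mimic samples. Of the H/ACA core genes, NHP2 rose from 74.6, 74.0 and 55.7 FPKM to 236, 188 and 180, a log2 fold change of 1.56 (SE 0.18, adjusted p = 0.00016, limma), and DKC1, GAR1 and NOP10 were not called, with 0.31, 0.27 and 0.03. With median-of-ratios scaling 2 of 4 box C/D and 4 of 4 H/ACA core genes were higher. That scaling also moved the share of all genes tested that were higher from 12.0% to 26.9%. DKC1, the pseudouridine synthase, was at 31.7, 38.2 and 31.8 FPKM in NC and 44.9, 44.2 and 37.1 in mimic samples.

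The counts of the lists below stand beside 39.6% lower and 12.0% higher among all genes tested. With median-of-ratios scaling these shares were 27.4% and 26.9%, and with the GC and length correction 23.4% and 26.6%. Among 17 genes for snoRNP assembly and transport, 4 were higher and 0 lower, with a median of 0.16. With median-of-ratios scaling 10 were higher and 0 lower. The 4 higher without that scaling were NOLC1, a chaperone of snoRNPs in the nucleolus (log2 fold change 1.20), the AAA+ ATPase gene RUVBL2 (0.78), TCOF1 (0.67) and PHAX (0.63), an adaptor for the export of small RNAs. Among 11 genes for intron release and end trimming, the 5′-to-3′ exonuclease gene XRN2 was higher (0.54), and the intron-binding helicase gene AQR (-0.72) and the exosome adaptor gene ZCCHC8 (-0.67) were lower; with median-of-ratios scaling 1 of the 11 was higher and 0 lower. The debranching enzyme gene DBR1 had a log2 fold change of -0.03 (SE 0.15) and was not called. Of 10 genes for the U3 particle and the early processome, 7 were higher and 1 was lower, with a median of 0.56, among them NOP14 with 1.27, and UTP15 was the lower one with -0.65; with median-of-ratios scaling 8 were higher and 0 lower. Of 55 small Cajal body RNA genes 6 were tested and 5 were lower, with a median of -1.79, and with the GC and length correction 3 were lower, with a median of -0.89. SCARNA13, SCARNA8 and SCARNA9 passed the 1 FPKM limit through the NC group only, so their fall follows in part from it. SCARNA9 went from 3.85, 2.88 and 4.50 FPKM to 0.497, 0.0526 and 0.288 (log2 fold change -2.47, SE 0.25), without overlap between the groups.

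The same test was read for other short genes. Of the 256 tested genes under 250 bases that are not members, 153 were lower (59.8%) and 13 higher, and their median was -1.09. In this length range the median was -1.18 for 86 miRNA genes, -1.48 for 31 snRNA genes and -1.31 for 34 genes of the class misc_RNA, but 0.03 for 22 mitochondrial tRNA genes. Annotated sense_intronic transcripts of any length, 111 genes that lie within introns, had a median of -1.12 with 84 lower. With median-of-ratios scaling the medians of these 256 short and 111 sense_intronic genes were -0.84 and -0.87, and with quantile normalization -0.54 and -0.48. With the GC and length correction 47 of the short genes were lower and 49 higher (median -0.11), and 41 sense_intronic genes were lower and 11 higher (median -0.34). The median of the 11571 protein-coding genes tested was -0.17. The part that gene length, library capture or unspliced RNA had in the members' result was not tested.

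**Figure D4:**
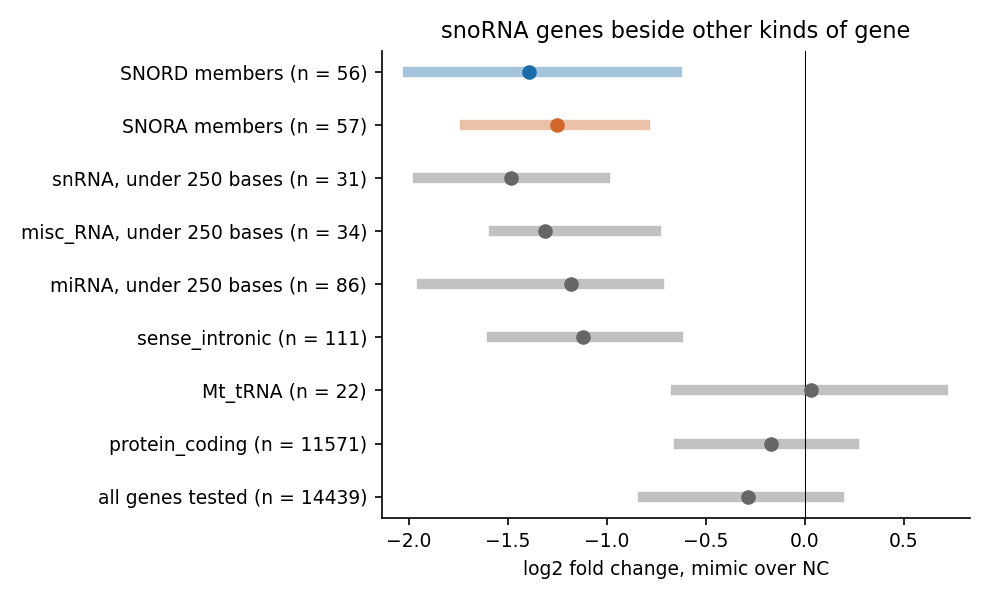
Median log2 fold change of mimic over NC (points) with the range of the middle 50% of genes (bars) for the members and for other kinds of gene; n is the number of genes tested. The SNORD and SNORA medians of -1.39 and -1.25 lie near those of snRNA, misc_RNA, miRNA and sense_intronic genes.

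The values of single members rest on few fragments. A gene's FPKM times its length, set against what 1 fragment is worth in that library, gives its level in whole-fragment equivalents. The median SNORD member had 10.2, 9.83 and 7.55 of these in NC samples and 6.64, 3.31 and 3.56 in mimic samples, and the median SNORA member 11.7, 9.67 and 8.13 against 4.13, 3.96 and 4.13. The implied depth was 17000000 to 21300000 fragments in NC samples and 25200000 to 31200000 in mimic samples. The number of fragments that touched a gene is not known, because genes under 250 bases show no step of 1 fragment. Sample 3 of each group had the highest mitochondrial share, 32.8% in NC and 38.9% in mimic samples, against 14.6% to 24.3% in the other samples. Without sample 3 of both groups, 35 SNORD genes were lower and 1 higher, and 38 SNORA genes lower and 1 higher. Of all genes tested, 31.9% were then lower and 9.19% higher.

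The correction for GC content and length also moved single members. SNORA8 (log2 fold change -0.47, adjusted p = 0.055, limma) and SNORD22 at chr11:62854161 (-0.16, adjusted p = 0.40) were no longer called. The same held for SNORA73B (-0.18, adjusted p = 0.60, limma), SNORA79B (-0.50, adjusted p = 0.19), SNORD11 (-0.10, adjusted p = 0.83) and SNORA9B (0.041, adjusted p = 0.93). SNORD58B, SNORD26, SNORA67 and SNORA64 at chr16:1962973 then had log2 fold changes of 0.41, 0.15, 0.054 and 0.014 and were not called. SNORD87 was called higher with 0.84 (adjusted p = 0.0056, limma), and SNORD14E with 1.80 (adjusted p = 0.0044, limma). SNORD63B, SNORD63, SNORD10, SNORD101, SNORA75 in NCL, SNORA4, SNORA63 and SNORD3A were lower, and SNORA77B higher, under each alternative in which they were tested.

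**Figure D5:**
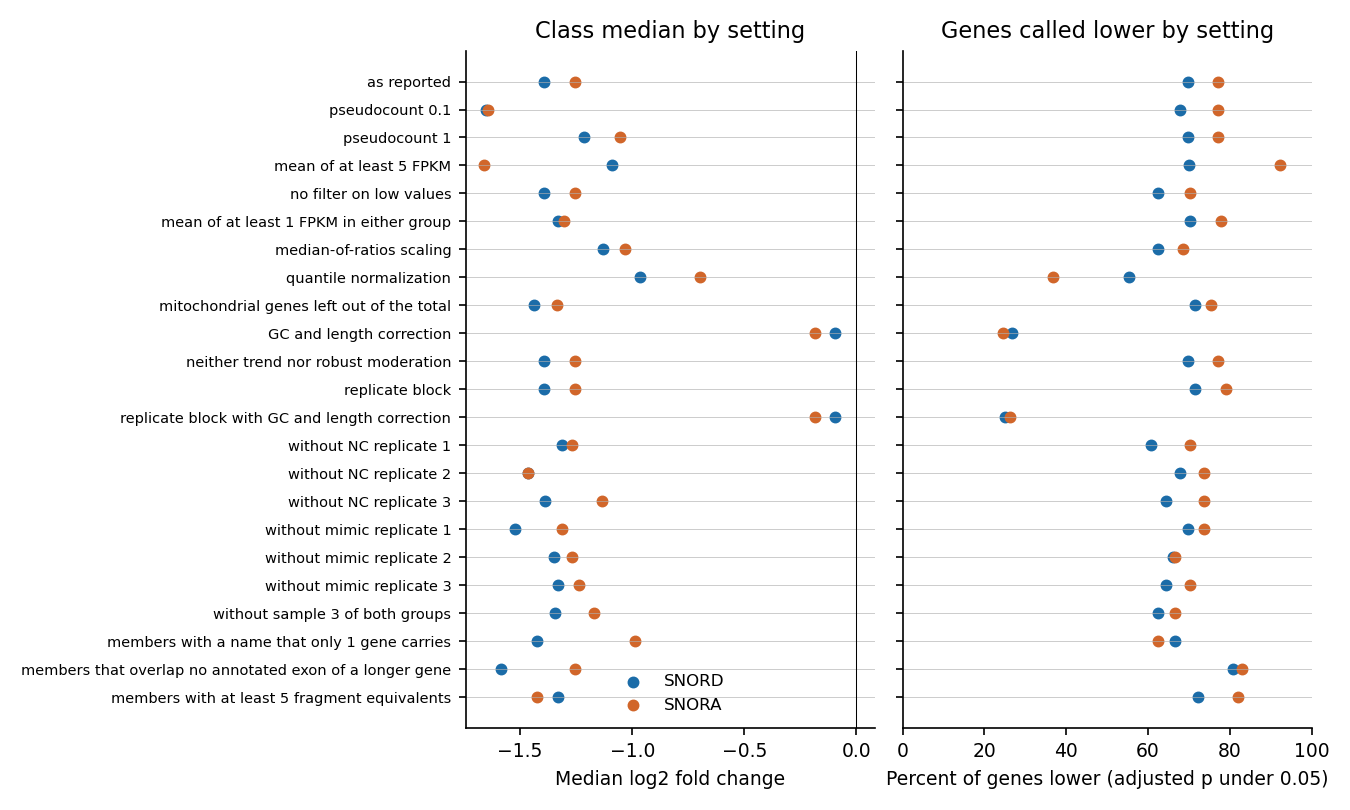
Median log2 fold change (left, x axis) and percent of genes called lower (right, x axis) of the SNORD and SNORA members under each processing alternative. The medians are near 0 with the GC and length correction, at -0.96 and -0.70 with quantile normalization, and lower under the other alternatives.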

How the data were processed

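RNA-seq of 6 libraries was used as deposited. The authors' table gives FPKM per gene for each sample, and their single-sample tables hold the same values. FastQC, HISAT2 and hg38 are named per the submitters' processing notes; neither the counting tool nor the strand setting is stated in the sources used. FPKM of genes under 250 bases held no whole-fragment steps, so no count test was run. The 14439 genes whose mean reached 1 FPKM were compared as log2(FPKM + 0.5) with limma 3.58.1 (R 4.3.3; trend and robust moderation), Benjamini-Hochberg adjustment over all of them, and a threshold of 0.05. Fold changes are on the log2(FPKM + 0.5) scale, which understates the change of low genes. The script was tested on simulated data. All 113 members have the position of GENCODE 29, which also gave hosts, introns and sequences. A host is the gene on the same strand that spans the whole member, the one of highest mean FPKM where several do.

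The members, gene lists and tests were chosen with earlier results of these data known. Genes named were, per class, the 6 of highest mean, the 4 of smallest p, those called higher (or the highest log2 fold change), the 2 on each side of the 1 FPKM limit, U3, U8 and U13 genes that are members, hosts with 3 or more members or of a named member, core proteins, and up to 3 called genes of each other list. A few more hosts, members and list genes were named after their values were seen. Alternatives were other pseudocounts, filters, scalings, a GC and length correction (mgcv 1.9.3), moderation, a replicate block, left-out samples and subsets of members.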

Additional observations from a re-analysis of the deposited data

How the results depend on the processing

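Depth limits single members, with about 3 to 12 fragment equivalents per sample for the median member. The median log2 fold changes of SNORD and SNORA genes, -1.39 and -1.25, stayed negative in each of the 22 alternatives. They were -1.65 and -1.64 with a pseudocount of 0.1, and the SNORA median was -1.05 with a pseudocount of 1. With a mean of at least 5 FPKM fewer genes were tested. Then 14 of 20 SNORD genes (70.0%) and 12 of 13 SNORA genes (92.3%) were lower, beside 30.8% of all genes. The medians were -1.09 and -1.66, and 0 SNORA genes were higher. Median-of-ratios scaling gave medians of -1.13 and -1.03. Quantile normalization gave medians of -0.96 and -0.70. It called 31 SNORD genes lower (55.4%) and 1 higher, and 21 SNORA genes lower (36.8%) and 2 higher. Of all genes tested, 22.8% were then lower and 24.9% higher. The cause of these moves was not tested.

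With the GC and length correction 15 SNORD genes were lower and 6 higher (median -0.10), and 14 SNORA genes lower and 4 higher (median -0.18). This is 26.8% and 24.6% lower beside 23.4% of all genes, and 10.7% and 7.02% higher beside 26.6%. The median of all genes was then 0.05. SNORA9B (0.041), SNORA64 (0.014), SNORD26 (0.15), SNORD58B (0.41), SNORA67 (0.054), SNORD87 (0.84, adjusted p = 0.0056) and HSPA9 (0.33, adjusted p = 0.022, limma) then had positive log2 fold changes; the cause was not tested. Whether equal sample numbers mark paired samples is not known. Deviations from the group means correlated at 0.177, -0.047 and 0.223 between same-numbered samples. The values for samples 1 and 3 were the highest of all pairs, while NC sample 2 correlated best with mimic sample 1. Deviations within a group of 3 sum to 0, so these correlations cannot decide it. A replicate block gave 40 SNORD and 45 SNORA genes lower, and 41.5% of all genes tested lower and 14.7% higher. The replicate block with the GC and length correction gave 14 SNORD genes lower and 6 higher (median -0.10), 15 SNORA genes lower and 2 higher (median -0.18), and the same positive values of 0.041, 0.014, 0.15, 0.41, 0.054, 0.84 and 0.33 for those genes.

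Leaving out each sample in turn gave 34 to 39 SNORD genes lower, 0 to 1 higher and medians of -1.52 to -1.31. It gave 38 to 42 SNORA genes lower, 1 to 2 higher and medians of -1.47 to -1.14. Of all genes tested, 32.5% to 39.7% were lower in these fits. Without sample 3 of both groups 1 SNORD gene was higher. Among members with a name that only 1 gene carries, 20 of 32 SNORA genes were lower (62.5%, median -0.99), against 24 of the 25 with a shared name (96.0%, median -1.60); the cause was not tested. Among members that overlap no exon of a longer gene, 25 SNORD genes (median -1.58) and 29 SNORA genes were lower and 0 SNORA genes higher. The share of all genes tested that were lower, with no sample left out, was 39.6%. Among members with at least 5 fragment equivalents the SNORA median was -1.43.

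Of 71 hosts 20 were lower and 5 higher, and of 46 protein genes of the snoRNP and processing lists 3 were lower and 13 higher (16 called). Of all genes tested, 39.6% were lower and 12.0% higher. Median-of-ratios scaling gave 18 hosts higher and, of the protein genes, 25 called, 25 higher and 0 lower, beside 26.9% of all genes higher. Quantile normalization gave 1 protein gene lower. The GC and length correction gave 12 hosts lower and 19 higher, and 28 protein genes called, 28 higher and 0 lower. Of all genes, 23.4% were then lower and 26.6% higher. With the replicate block added to that correction, 22 hosts were higher, and 29 protein genes were called, 29 higher and 0 lower. Leaving out each sample in turn kept these counts within 1.5 times.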
